A study of Bos taurus with 28 samples.

Results

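Cows homozygous for lysine at a variable residue of DGAT1 were compared with heterozygous cows in mammary tissue. The comparison held 17 of the 28 arrays of the series, chosen by the genotype label alone: 4 arrays of KK cows (labelled K232K, lysine on both alleles) and 13 of KA cows (labelled A232K, 1 lysine and 1 alanine allele). The 11 AA arrays (A232A, alanine on both alleles) entered no fit or test apart from an alternative fit of all 28 arrays. All cows were lactating Holstein-Friesians in mid-lactation on a control ration of maize silage, grass silage and concentrates, and all carried at least 1 lysine allele. The question was which transcripts differ between a gland with 2 lysine alleles and a gland with 1. RNA of each cow's surgical biopsy went onto 1 array of the Affymetrix bovine design, which reads a transcript through a set of short probes in a single colour. The arrays are therefore separate animals, and the small number of KK arrays limits the precision.

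DGAT1 encodes an enzyme of the endoplasmic reticulum that joins a fatty acyl-CoA to diacylglycerol, the last step of triacylglycerol synthesis. In the lactating gland its product fills the lipid droplets that leave the secretory epithelial cell as milk fat globules. The lysine form is known in dairy cattle for milk of higher fat content and is held to be the more active enzyme. The change lies in the coding sequence, so the level of the DGAT1 transcript does not check the genotype labels. Around the secretory epithelium the gland holds contractile myoepithelial cells, a collagen-rich stroma with its fibroblasts, vessels, fat cells and resident immune cells, and a biopsy carries RNA of all of them.

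All values below are log2 values from which 1 baseline per probe set had been subtracted before deposit, so they compare arrays within a probe set and say nothing of one gene's level against another's. A coarse level class (bright, intermediate or dim) could be read from the rounding of the values. The 10 milk genes checked, among them the 4 caseins, LALBA (alpha-lactalbumin) and PAEP (beta-lactoglobulin), were all bright, against 15.8% of all 9155 genes measured. The SD over probe sets ran from 0.23 to 0.29 in KK arrays and from 0.24 to 0.35 in KA arrays. Correlated over all probe sets, as a description, pairs of KK arrays gave a median of 0.02, pairs of KA arrays 0.20 and a KK with a KA array 0.10. In the actin and GAPDH controls, the signal of the 3′ over the 5′ probe sets, a sign of RNA quality, was, on the log2 scale, -0.08 to 0.22 in KK arrays and -0.32 to 0.14 in KA arrays. The array numbers in the titles were split unevenly: numbers 29 to 42 held 4 KK and 2 KA arrays (KA 1 and KA 2), and numbers 43 to 56 held 0 KK and 11 KA arrays. No source used here says whether these numbers mark a hybridisation order or a batch, so values within 29 to 42 are given beside many of the results. KK 4 and KA 5 had the highest neutrophil markers, with means over 5 measured genes of 1.65 and 2.54, against -0.28 to 0.61 in the other 15 arrays.

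No transcript was separated from the background of the 24016 probe sets. With limma, 0 of 24016 probe sets (0%) passed an adjusted p of 0.05 after Benjamini-Hochberg adjustment, and the smallest adjusted p, 0.116, was shared by 8 probe sets. An unadjusted limma p under 0.05 was reached by 1479 probe sets (6.16%), 710 higher in KK (2.96%) and 769 lower (3.2%), where 1201 would be expected if nothing differed. Of all probe sets 49.5% lay above 0 and 50.5% below, every KK array lay above every KA array in 7 (0.0291%), and every KK array lay below every KA array in 32 (0.133%). An exact two-sided permutation test over all ways to pick 4 of 17 arrays gave 1435 probe sets under 0.05 and a smallest adjusted p of 0.517. Arrays were also simulated with the same group sizes, normal and independent probe sets, and 200 of 24016 probe sets changed. There the limma test recovered 53% of differences of 0.5 log2 and 93% of differences of 1 log2. Differences of 0.5 were thus often missed even there, and smaller ones were not simulated. Fewer changed probe sets were not simulated either, so these shares do not give the sensitivity of the real arrays.

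With 1 probe set for each of 9155 genes, 486 genes (5.31%) reached an unadjusted p under 0.05, against 458 expected, 2.53% of all genes being higher in KK and 2.77% lower. The median difference over genes was near 0, 49.8% of genes lay above 0 and 50.2% below, the median absolute difference was 0.085 log2 and the median SE was 0.116. Only 103 genes differed by more than 0.5 log2 and 5 by more than 1. Every KK array lay above every KA array in 2 genes (0.0218%), RGS1 and SLTM. In 8 genes (0.0874%) every KK array lay below every KA array: TOR1AIP1, CALD1, CDC25C, GORASP1, EDC3, RNF25, GLTP and GCLM. GORASP1, EDC3, RNF25 and GLTP fall outside the rule for naming genes and were named after their values were seen.

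DGAT1 itself was not separated between KK and KA. Its log2 value was 0.06 in KK 1, 0.68 in KK 2, 0.84 in KK 3 and 0.62 in KK 4, and the KA arrays ran from -0.06 through a median of 0.36 to 0.64. KK 2 and KK 3 lay above the highest KA array, KK 4 lay inside the KA range and KK 1 lay near its lower end. The difference was 0.20 log2 (SE 0.14, 95% interval -0.09 to 0.49; limma adjusted p = 0.892, exact permutation p = 0.181), which did not exceed the spread between cows. It was 0.37 without KK 1 and 0.11 without KK 3, and 0.45 within array numbers 29 to 42. Whether its probes cover the variable residue was not tested.

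The rule for naming genes took the 12 of smallest p in each direction, and since none passed the adjustment their values are given as a description. Among those higher in KK were 3 genes known from lymphocytes, and the others spanned lipid transfer, glycosylation, and proteins of the nucleus. Those lower in KK held several proteins of the extracellular matrix and of its processing. This grouping was made after the names were seen, and was not tested. Over the 12 higher genes the adjusted p ran from 0.116 to 0.328 and over the 12 lower genes from 0.116 to 0.393.

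RGS1, which shortens G protein signalling from chemokine receptors and is abundant in activated lymphocytes, showed the widest gap among the 24. Its log2 value was 0.60, 1.19, 0.56 and 0.76 in KK 1 to KK 4, while KA ran from -2.10 through a median of -1.07 to 0.23 (KA 9). The groups did not overlap, and the KA arrays were themselves spread over more than 2 log2. KK exceeded KA by 1.75 log2, or 3.37-fold (SE 0.33, 95% interval 1.07 to 2.44; limma adjusted p = 0.116, exact permutation p = 0.00084, the smallest this design can give). Within array numbers 29 to 42 the difference was 1.27.

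LY9 and ICOS are the other lymphocyte genes of this set. LY9, a receptor of the SLAM family, was 0.30, 0.05, 0.02 and 0.80 in KK 1 to KK 4 and ran from -0.44 through -0.29 to 0.03 in KA, a difference of 0.54 (SE 0.12, limma adjusted p = 0.232) that was 0.37 without KK 4. Its second probe set gave -0.11, so the 2 probe sets disagree. ICOS, a costimulatory receptor of T cells, was 0.22, 0.14, 0.30 and 0.32 in KK and ran from -0.25 through -0.04 to 0.14 in KA. It differed by 0.27 (SE 0.07, limma adjusted p = 0.324), and its second probe set gave the same 0.27.

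BLTP3B, a member of the bridge-like family of lipid transfer proteins, had the smallest p of all named genes. It read -0.08, 0.14, 0.64 and 0.23 in KK 1 to KK 4, against -0.96 at the lowest, -0.71 at the median and -0.05 at the highest in KA. Of the KK arrays 3 lay above every KA array, and KK 1 lay below KA 9 alone. The difference was 0.89 log2, or 1.85-fold (SE 0.14, limma adjusted p = 0.116, exact permutation p = 0.00168), and 0.85 within array numbers 29 to 42.

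LOC526041, a locus with no other name in the table, was 0.44, 0.17, 0.37 and 0.39 in KK and -0.30, -0.12 and 0.22 at the lowest, median and highest KA array, a difference of 0.47 (SE 0.08, limma adjusted p = 0.116). ST8SIA4, a sialyltransferase that builds polysialic acid, was 0.15, 0.34, 0.43 and 0.35 in KK and ran from -0.67 through -0.26 to 0.20 in KA, a difference of 0.58 (SE 0.12, limma adjusted p = 0.212). Both probe sets were dim, and in both a single KA array reached the KK range.

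SLTM, a nuclear RNA-binding protein, was the second gene without overlap, at 0.39, 0.32, 0.33 and 0.48 in KK against -0.29, -0.08 and 0.29 at the lowest, median and highest KA array. The gap between the lowest KK and the highest KA array was small, and the difference of 0.43 (SE 0.10, limma adjusted p = 0.24) was 0.38 in its second probe set. CCAR1, a transcriptional coactivator, differed by 0.61 (SE 0.14), with KK 2 at -0.16 inside the KA range and KK 3 at 0.78. PHF3, which binds RNA polymerase II, differed by 0.51 (SE 0.12), and its second probe set by 0.70. SMARCA4, the ATPase of the SWI/SNF chromatin remodeller, differed by 0.40 (SE 0.10), but its 4 other probe sets gave values from -0.13 to 0.11. RESF1, a factor in the silencing of retroelements, differed by 0.51 (SE 0.13), with KK 4 at 0.93 well above KK 1 to KK 3 at 0.24 to 0.42. TP53RK, a kinase of the complex that modifies transfer RNA, differed by 0.44 (SE 0.10) in the described probe set and by -0.01 in the other. Across the 12 genes, 8 had further probe sets on the array, and 8 of those 12 probe sets had the same sign.

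**Figure D1:**
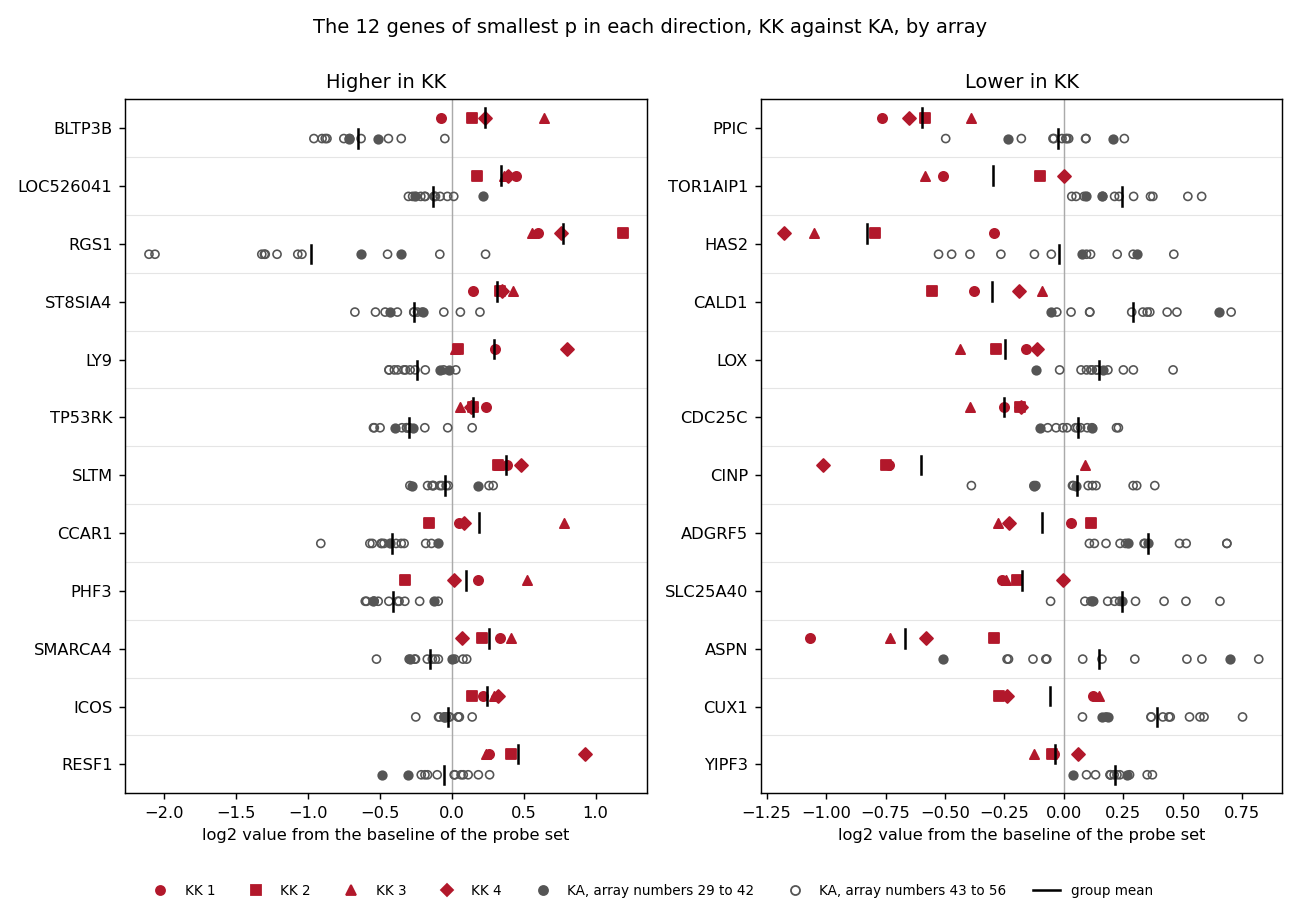
Log2 value from the baseline of the probe set (horizontal axis) of the 12 genes of smallest p in each direction, in each of the 4 KK arrays (red, a shape per array) and 13 KA arrays (grey; filled for numbers 29 to 42, open for 43 to 56), with bars at the group means. RGS1, SLTM, TOR1AIP1, CALD1 and CDC25C show no overlap of the groups, and in the other 19 genes at least 1 array lies inside the other group's range.

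On the lower side, LOX, ASPN and HAS2 act in the extracellular matrix. LOX, the lysyl oxidase that crosslinks collagen and elastin, was -0.16, -0.28, -0.43 and -0.11 in KK 1 to KK 4 and ran from -0.12 through 0.14 to 0.46 in KA. Only KA 2 reached the KK range. The difference was -0.39 (SE 0.09, 95% interval -0.58 to -0.21; limma adjusted p = 0.217) and -0.27 within array numbers 29 to 42.

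ASPN, asporin, a small proteoglycan that binds collagen, was -1.07, -0.29, -0.73 and -0.58 in KK and ran from -0.51 through 0.08 to 0.82 in KA. Only KA 1, an array of the lower numbers, reached the KK range, and the difference was -0.81 (SE 0.20, limma adjusted p = 0.328). HAS2, a synthase of the matrix polysaccharide hyaluronan, was -0.29, -0.80, -1.05 and -1.18 in KK and ran from -0.53 through 0.08 to 0.46 in KA. KK 1 lay among the KA arrays and the other 3 below all of them, with a difference of -0.81 (SE 0.18, limma adjusted p = 0.212), but the 2 other HAS2 probe sets gave 0.02 and 0.01.

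PPIC, cyclophilin C, a prolyl isomerase of the secretory pathway, had the smallest p among the lower genes. It was -0.76, -0.58, -0.39 and -0.65 in KK against -0.50, 0.01 and 0.25 at the lowest, median and highest KA array. KA 8 alone reached the KK range, and the difference was -0.57 (SE 0.11, 95% interval -0.80 to -0.35; limma adjusted p = 0.116). The other PPIC probe set gave 0.00, so the value rests on 1 of 2 probe sets.

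CALD1, caldesmon, an actin-binding protein of smooth muscle and myoepithelium, was -0.38, -0.55, -0.09 and -0.19 in KK and ran from -0.06 through 0.33 to 0.70 in KA, with no overlap. It differed by -0.59 (SE 0.13, 95% interval -0.87 to -0.32; limma adjusted p = 0.212, exact permutation p = 0.00084) and by -0.60 within array numbers 29 to 42. The lowest KA array, KA 1, belonged to the lower numbers.

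TOR1AIP1, a protein of the inner nuclear membrane, was -0.51, -0.10, -0.58 and 0.00 in KK and 0.03, 0.21 and 0.58 at the lowest, median and highest KA array, with KK 4 just below the KA range. The difference was -0.54 (SE 0.11, limma adjusted p = 0.212), and its 2 other probe sets gave -0.28 and -0.02. CDC25C, a phosphatase that drives entry into mitosis, was -0.25, -0.18, -0.40 and -0.18 in KK and ran from -0.10 through 0.06 to 0.23 in KA, a difference of -0.31 (SE 0.07, limma adjusted p = 0.24) in a dim probe set. CINP, a partner of cell cycle kinases, differed by -0.66 (SE 0.15), but KK 3 at 0.09 lay inside the KA range, and without KK 3 the difference was -0.89 and passed the adjustment.

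The remaining genes of this set were ADGRF5, an adhesion receptor abundant in endothelium, at -0.44 (SE 0.11), SLC25A40, a mitochondrial carrier, at -0.42 (SE 0.10), CUX1, a homeobox transcription factor, at -0.45 (SE 0.11), and YIPF3, a Golgi membrane protein, at -0.25 (SE 0.07). CUX1 had further probe sets at -0.11 and 0.45, the latter as large in the other direction. Of 8 further probe sets of the 12 genes, 4 had the same sign. All 24 genes kept their sign within array numbers 29 to 42, where the same 4 KK arrays face only KA 1 and KA 2, so this is not an independent check.

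A pair of the 8 probe sets at the smallest adjusted p belonged to genes represented by another probe set, and they were named after their values were seen. The SIRT2 probe set, of a deacetylase, differed by -0.45 (SE 0.08) with every KK array below every KA array, and the other SIRT2 probe set by -0.12. The LAMC1 probe set, of a laminin chain of basement membranes, differed by -0.51 (SE 0.09), also without overlap, and its 5 other probe sets by -0.45 to 0.12. The 5 genes beyond 1 log2 were RGS1, LOC783399 at 2.63 (SE 1.03), LOC785756 at -1.55 (SE 1.02), BOLA-N, a class I histocompatibility gene, at 1.42 (SE 0.78) and UBD, a ubiquitin-like protein induced by interferon gamma, at 1.09 (SE 0.32). For LOC783399 and LOC785756 the KA arrays spread over more than 5 log2, and BOLA-N read 4.88 in KK 4 against -1.36 to 0.98 in the other KK arrays and gave 0.10 without KK 4.

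Markers of the stroma lay lower in KK as a list. Of 22 measured fibroblast and matrix markers, 19 lay below 0 and 3 above, with a median of -0.24 log2, where all genes had a median near 0. An unadjusted limma p under 0.05 was reached by 5 lower genes (22.7%, against 2.77% of all genes) and by 0 higher ones, and 0 passed the adjustment. In bulk tissue, fewer cells of a type and less RNA per cell cannot be told apart. The 5 were OGN, MFAP5, COL12A1, PI16 and, outside the rule and named after its value was seen, COL1A2 at -0.39 (SE 0.18), a chain of collagen I.

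OGN, osteoglycin, a small proteoglycan of the matrix, was -0.60, -0.97, -0.87 and -0.89 in KK 1 to KK 4 and ran from -0.64 through -0.37 to 0.35 in KA, a difference of -0.60 (SE 0.17, limma adjusted p = 0.439). MFAP5, a component of elastic microfibrils, was -0.59, -0.46, -0.46 and -0.35 in KK and ran from -0.37 through -0.18 to 0.57 in KA, a difference of -0.33 (SE 0.12, limma adjusted p = 0.672). In both genes 2 KA arrays reached the KK range. COL12A1, a collagen that binds to fibril surfaces, differed by -0.44 (SE 0.17) with KK 3 at 0.18 inside the KA range. PI16, a marker of adventitial fibroblasts, differed by -0.40 (SE 0.16), and 5 KA arrays lay below its highest KK value.

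By array, the mean over the fibroblast and matrix markers was -0.49 in KK 1, -0.36 in KK 2, 0.03 in KK 3 and -0.15 in KK 4, and ran from -0.33 through 0.01 to 0.17 in KA. KK 1 and KK 2 lay below every KA array, and KK 3 and KK 4 lay inside the KA range. The list therefore turned on which KK arrays were kept: without KK 1 the median was -0.12 with 1 gene at an unadjusted p under 0.05, and without KK 3 it was -0.35 with 9. With array number as a covariate the median was -0.17 with 2 such genes, and within array numbers 29 to 42 it was -0.30.

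The enzymes and chaperones that hydroxylate, fold, cleave and crosslink collagen showed a similar list, which shares no gene with the markers above. Of 21 measured, 18 lay below 0, with a median of -0.17. At an unadjusted p under 0.05, 5 were lower (23.8%, against 2.77% of all genes). Besides PPIC and LOX these were P3H2, a prolyl hydroxylase, at -0.31 (SE 0.09), PLOD3, a lysyl hydroxylase, at -0.32 (SE 0.11), and LOXL1, an oxidase of elastin crosslinks, at -0.65 (SE 0.27), the last named after its value was seen. P3H2 was -0.40, 0.03, -0.23 and -0.44 in KK and ran from -0.18 through 0.06 to 0.31 in KA, and KK 2 lay near the middle of KA. The list median was -0.07 without KK 1, -0.07 within array numbers 29 to 42 and -0.02 with array number as a covariate. The part of array number was not tested, since array number and genotype are largely confounded.

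Contractile genes gave the third list on this side. Of 14 measured markers of myoepithelium and smooth muscle, 13 lay below 0, with a median of -0.21. At an unadjusted p under 0.05, 2 were lower (14.3%, against 2.77% of all genes), CALD1 and CNN1. The list mean was -0.34, -0.33 and -0.32 in KK 1, KK 2 and KK 4 but 0.35 in KK 3, and ran from -0.24 through 0.05 to 0.37 in KA. Those 3 KK arrays lay below every KA array, and KK 3 lay just below the highest, KA 9.

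CNN1, calponin, a regulator of smooth muscle contraction, was -0.22, -0.42, 0.45 and -1.27 in KK and ran from -0.50 through 0.21 to 0.62 in KA. Its difference was -0.52 (SE 0.22, limma adjusted p = 0.737) and -0.22 without KK 4. TAGLN, transgelin, differed by -0.40 (SE 0.20) and TPM2, a tropomyosin, by -0.35 (SE 0.20), with KK 3 inside or above the KA range in both. Without KK 3 the list median was -0.39 with 6 genes at an unadjusted p under 0.05. The count was 1 without KK 2 or KK 4 and 4 without KA 11.

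**Figure D2:**
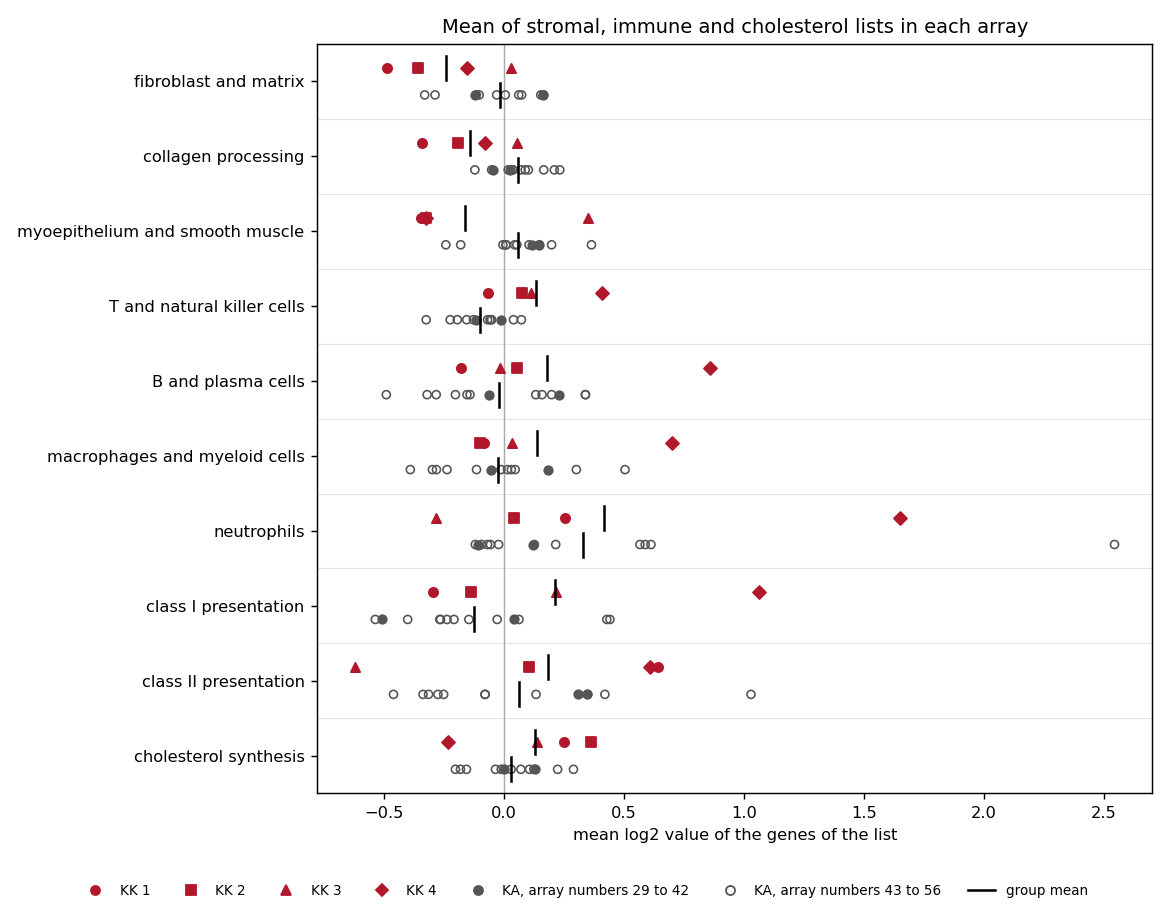
Mean log2 value over the measured genes of each of 10 lists (horizontal axis) in each of the 4 KK arrays (red, a shape per array) and 13 KA arrays (grey; filled for numbers 29 to 42, open for 43 to 56), with bars at the group means. KK 1 and KK 2 lie below all KA arrays in fibroblast markers, KK 3 at 0.35 stands apart from the other KK arrays in contractile markers, and KK 4 is the highest KK array in the neutrophil, macrophage, B cell, T cell and class I lists.

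Most markers of T and natural killer cells lay higher in KK. Of 20 measured, 15 lay above 0, with a median of 0.26, and 5 were higher at an unadjusted limma p under 0.05 (25.0%, against 2.53% of all genes), while 0 passed the adjustment. They were CD3G, CD2, CD8A, CD247 and, outside the rule and named after its value was seen, KLRK1, a receptor of natural killer and cytotoxic T cells, at 0.28 (SE 0.11). Another 5 markers lay below 0, the lowest at -0.28. Also named after their values were seen, CD4 was at -0.10, CD28 at -0.06 and CD6 at -0.02. CD3G, a chain of the T cell receptor complex, was -0.16, 0.37, 0.24 and 0.97 in KK and ran from -1.23 through -0.55 to 0.34 in KA, a difference of 0.79 (SE 0.24, limma adjusted p = 0.531). Of 13 KA arrays, 3 lay above the lowest KK value.

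CD8A, a chain of the coreceptor of cytotoxic T cells, was 0.09, 0.16, 0.55 and 1.12 in KK and ran from -0.68 through -0.12 to 0.61 in KA, a difference of 0.52 (SE 0.20, limma adjusted p = 0.681). CD2, an adhesion receptor of T cells, differed by 0.45 (SE 0.16) and CD247, the zeta chain of the receptor complex, by 0.42 (SE 0.16). KK 4 was the highest of all 17 arrays in all 4 genes, and without it CD8A differed by 0.31, CD2 and CD247 each by 0.25, and CD3G by 0.58. The list mean was -0.07, 0.07, 0.11 and 0.41 in KK 1 to KK 4 and ran from -0.32 through -0.07 to 0.07 in KA, so 3 KK arrays lay above every KA array, KK 2 only just.

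Without KK 4 the T cell median was 0.15 and the count at an unadjusted p under 0.05 was 1. It was 9 without KK 1 and 8 without KA 5. With KK 4 and KA 5, the arrays of highest neutrophil markers, both left out, the median was 0.17 with 1 such gene, and within array numbers 29 to 42 it was 0.16 with 0. What neutrophils or other inflammatory cells contribute to these values was not tested.

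Genes of class I antigen presentation, which load peptides for recognition by CD8 T cells, followed KK 4 more closely. Of 14 measured, 13 lay above 0, with a median of 0.22. At an unadjusted p under 0.05, 2 were higher (14.3%, against 2.53% of all genes), ERAP2 and TAP2. The list mean was -0.29, -0.14, 0.22 and 1.06 in KK 1 to KK 4 and ran from -0.54 through -0.21 to 0.44 in KA. KK 4 lay far above every KA array, the other 3 KK arrays lay inside the KA range, and without KK 4 the median was 0.05. The count of 2 genes was 1 without KK 4, 5 without KK 1 and 4 without KK 2, KA 2, KA 5 or KA 9.

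ERAP2, a peptidase that trims peptides for class I molecules, was the exception within this list. It was 0.58, 0.93, 0.73 and 0.42 in KK, with KK 4 the lowest of the 4, and ran from -0.89 through -0.06 to 0.71 in KA. The difference was 0.73 (SE 0.19, 95% interval 0.32 to 1.14; limma adjusted p = 0.393, exact permutation p = 0.0042). It was 0.64 to 0.81 with 1 array left out, but 0.27 within array numbers 29 to 42, since KA 1 of that range was the highest KA array. TAP2, a subunit of the peptide transporter, was 0.39, -0.14, 0.21 and 0.78 in KK and ran from -0.98 through -0.35 to 0.50 in KA, a difference of 0.62 (SE 0.24).

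Other immune lists depended on KK 4. B and plasma cell markers had a median of 0.20 over 10 genes, -0.01 without KK 4 and 0.07 within array numbers 29 to 42. Macrophage and myeloid markers had a median of 0.11 over 13 genes. MSR1, a scavenger receptor, at 0.56 (SE 0.20) and CYBB, the catalytic subunit of the phagocyte oxidase, at 0.64 (SE 0.28) were under an unadjusted p of 0.05. These 2 higher genes were 15.4% of the list, against 2.53% of all genes. The median was -0.07 without KK 4, 0.25 without KK 1 and 0.04 within array numbers 29 to 42. That count of 2 was 0 without KK 3 and 1 without KK 4, KA 1, KA 4, KA 7 or KA 8. Class II presentation had a median of 0.19 over 11 genes with none under an unadjusted limma p of 0.05. It was 0.02 without KK 4, 0.38 without KK 3 and -0.06 within array numbers 29 to 42. Its chains BOLA-DRA and BOLA-DRB3, which form the surface molecule that shows peptides to helper T cells, differed by 0.42 (SE 0.22) and 0.30 (SE 0.23), and by 0.21 and 0.10 without KK 4.

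**Figure D3:**
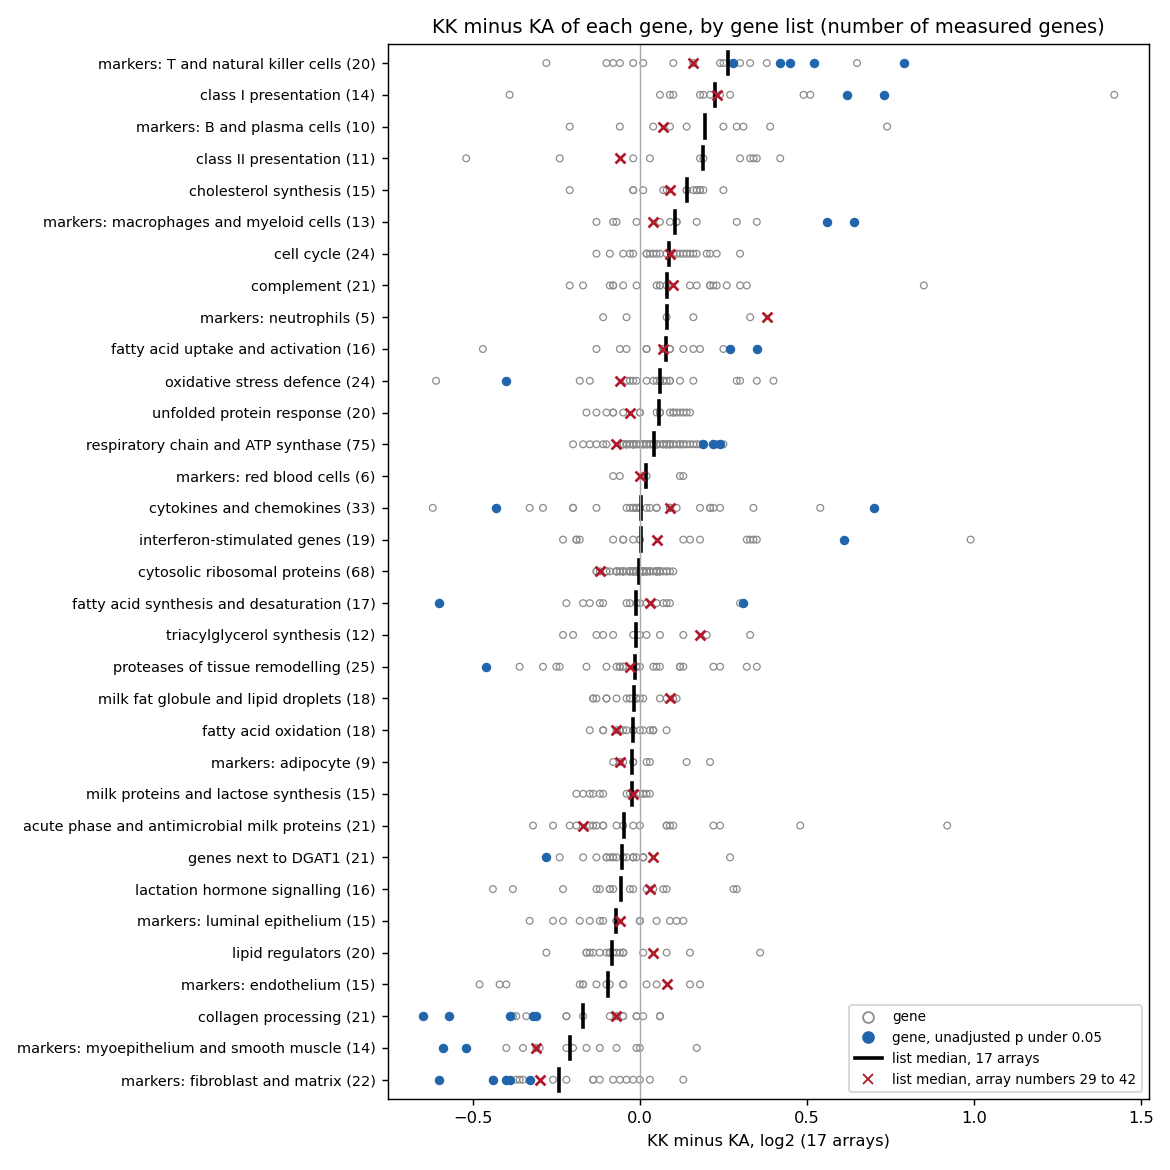
KK minus KA in log2 (horizontal axis) of each measured gene in each gene list (a line per list, its number of measured genes in brackets), with filled points for genes at an unadjusted limma p under 0.05, a bar at the median over 17 arrays and a cross at the median within array numbers 29 to 42. The fibroblast list has the lowest median, -0.24, and the T and natural killer cell list the highest, 0.26; crosses lie across 0 from the bars in triacylglycerol synthesis, lipid regulators, genes next to DGAT1 and the respiratory chain, among others.

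Genes of milk fat synthesis did not separate KK from KA. Among 12 measured genes of triacylglycerol synthesis, 5 lay above 0 and 7 below, the median was -0.01, and with limma 0 were under an unadjusted p of 0.05. Besides DGAT1, the members of smallest p were AGPAT2, MOGAT1 and AGPAT5. AGPAT2, an acyltransferase that makes phosphatidic acid, differed by -0.20 (SE 0.10). MOGAT1, which makes diacylglycerol, differed by -0.13 (SE 0.08), and AGPAT5, a further acyltransferase, by 0.33 (SE 0.24). DGAT2, the unrelated other enzyme of the last step, differed by 0.00 (SE 0.12) and was named for that role, outside the rule. The median was 0.18 within array numbers 29 to 42, where 9 of 12 genes lay above 0, so its direction was not settled by these arrays.

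In fatty acid synthesis and desaturation the median of 17 genes was -0.01, and 2 genes were under an unadjusted p of 0.05 in opposite directions. Each was 5.88% of the list, against 2.53% of all genes higher and 2.77% lower. ACACA, acetyl-CoA carboxylase, which makes the building block of fatty acid chains, was -0.11, -0.33, 0.90 and 0.03 in KK and ran from -0.23 through 0.66 to 1.60 in KA, a difference of -0.60 (SE 0.27, 95% interval -1.16 to -0.05). Within array numbers 29 to 42 it was 0.07, as KA 1 and KA 2 were among the lower KA arrays. SCD5, a desaturase, was 0.44, -0.13, 0.20 and -0.10 in KK and ran from -0.62 through -0.23 to 0.38 in KA, a difference of 0.31 (SE 0.14), and of -0.02 within array numbers 29 to 42. Both limma adjusted p were over the threshold, at 0.761 and 0.785. No gene was lower at an unadjusted limma p under 0.05 without KK 1, KK 2 or KK 4, and none was higher without KK 3, KA 5, KA 6, KA 10, KA 11, KA 12 or KA 13.

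Genes that import and activate fatty acids had a median of 0.08 over 16 genes, 12 of them above 0. Of the 16, 2 were higher at an unadjusted p under 0.05 (12.5%, against 2.53% of all genes). ACSL1, which joins long-chain fatty acids to coenzyme A, was 0.38, -0.08, 0.03 and 0.16 in KK and ran from -0.62 through -0.04 to 0.15 in KA, a difference of 0.27 (SE 0.12). SLC27A6, a fatty acid transport protein, was 0.63, -0.18, -0.58 and 0.40 in KK and ran from -0.58 through -0.29 to 0.12 in KA. Its KK arrays spanned more than the KA range, and the difference was 0.35 (SE 0.17). The count of 2 was kept only without KK 2, KK 3, KA 4 or KA 6. It was 0 without KK 1, KA 2 or KA 3 and 1 without any other single array, and the median was 0.01 without KK 1.

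Among the regulators of lipid genes 16 of 20 lay below 0, with a median of -0.08, and 0 were under an unadjusted limma p of 0.05. SREBF1, the transcription factor held to drive lipid synthesis in the gland, was 0.59, 0.80, 0.42 and 0.31 in KK and ran from -0.28 through 0.53 to 1.09 in KA, all KK arrays inside the KA range. Its difference was 0.15 (SE 0.19, 95% interval -0.25 to 0.54), and that of SREBF2, its relative for cholesterol genes, was -0.09 (SE 0.14, 95% interval -0.37 to 0.19). INSIG1, which retains both in the endoplasmic reticulum and is itself their target, was 0.84, 0.91, 0.70 and -0.05 in KK and ran from -0.36 through 0.24 to 1.00 in KA, with 3 KK arrays high and KK 4 low. It differed by 0.36 (SE 0.22) and by 0.58 at most with 1 array left out. The list median was 0.04 within array numbers 29 to 42, so its direction changed.

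Enzymes of cholesterol synthesis lay above 0 in 12 of 15 genes, with a median of 0.14 and 0 under an unadjusted limma p of 0.05. The list mean was 0.25, 0.36, 0.14 and -0.23 in KK 1 to KK 4 and ran from -0.20 through 0.03 to 0.29 in KA, so KK 2 lay above and KK 4 below all KA arrays. NSDHL, a dehydrogenase of the late pathway, was 0.29, 0.70, 0.32 and -0.13 in KK and ran from -0.36 through 0.13 to 0.44 in KA, a difference of 0.18 (SE 0.14). MSMO1, a methyl sterol oxidase, also differed by 0.18 (SE 0.12), EBP, a sterol isomerase, by 0.14 (SE 0.11), and LSS, which closes the sterol rings, by -0.21 (SE 0.11), the smallest p of the list and the opposite sign. Without KK 4 the median was 0.29 and 6 genes were higher at an unadjusted p under 0.05, while without KK 2 it was 0.04 with 0 such genes by limma. With array number as a covariate the median was 0.03.

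Milk protein genes were nearly identical in both genotypes. The caseins CSN1S1, CSN1S2, CSN2 and CSN3 differed by -0.01, 0.01, 0.02 and 0.00 log2, with 95% intervals within -0.15 to 0.13. CSN1S1 was 0.05, 0.09, 0.05 and -0.09 in KK and ran from -0.17 through 0.05 to 0.18 in KA. LALBA differed by 0.01 and PAEP by -0.02, both named outside the rule as the main whey proteins, and over the 15 genes of milk proteins and lactose synthesis the median was -0.03. The smallest p of that list was that of SLC35A2, which carries the galactose donor into the Golgi, at -0.17 (SE 0.09), and B4GALT1, whose product joins LALBA to make lactose, differed by -0.19 (SE 0.18). The probe sets of the caseins, LALBA and PAEP were bright, and whether they were near saturation was not tested. The median over 18 genes of the milk fat globule and its lipid droplets was -0.02, and 0.09 within array numbers 29 to 42, with 0 genes under an unadjusted limma p of 0.05, the smallest p belonging to ABHD5, a cofactor of triacylglycerol breakdown, at -0.14 (SE 0.09).

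**Figure D4:**
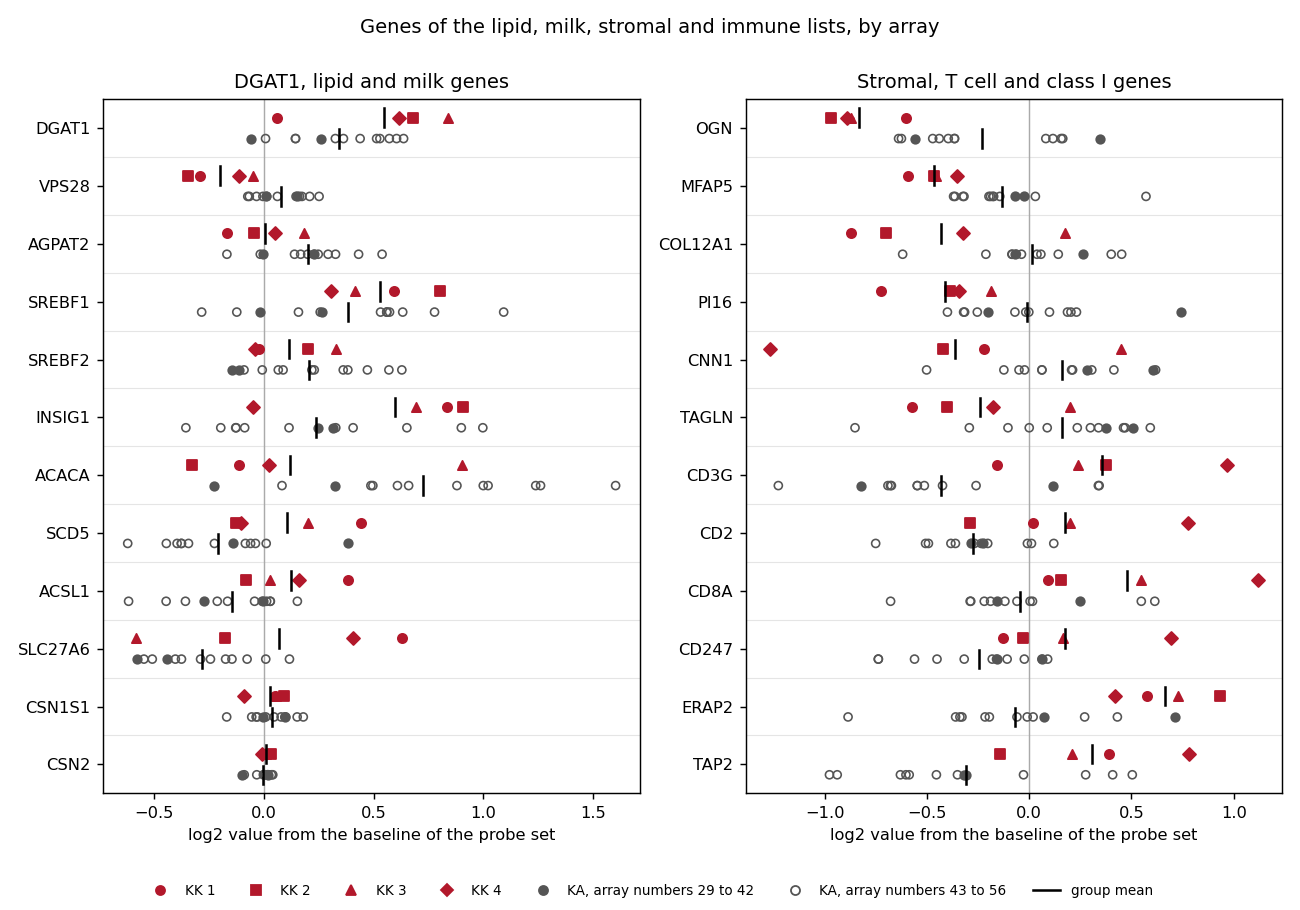
Log2 value from the baseline of the probe set (horizontal axis) of DGAT1 with lipid and milk genes (left) and of stromal, T cell and class I genes (right), in each of the 4 KK arrays (red, a shape per array) and 13 KA arrays (grey; filled for numbers 29 to 42, open for 43 to 56), with bars at the group means. DGAT1 shows KK 1 at 0.06 inside the KA range, the caseins show almost no spread, and KK 4 is the rightmost array in CD3G, CD2, CD8A, CD247 and TAP2.

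The genes that lie next to DGAT1 can travel with its alleles, and 21 of the 40 nearest (20 on each side in RefSeq order) were measured. Of these 17 lay below 0 and 4 above, with a median of -0.05, while DGAT1 lay above. VPS28, a subunit of a complex that sorts membrane proteins into endosomes, was the 1 gene under an unadjusted p of 0.05. That is 4.76% of the list, near the 5.31% of all genes in either direction. VPS28 was -0.29, -0.34, -0.05 and -0.11 in KK and ran from -0.07 through 0.06 to 0.25 in KA, with 2 KA arrays reaching the KK range. The difference was -0.28 (SE 0.08, 95% interval -0.44 to -0.11; limma adjusted p = 0.439, exact permutation p = 0.00252), and also -0.28 within array numbers 29 to 42. NRBP2 at 0.27 (SE 0.14), OPLAH at -0.24 (SE 0.14) and GPAA1, of the complex that attaches lipid anchors to proteins, at -0.17 (SE 0.10) followed. Within array numbers 29 to 42 the median of the 21 genes was 0.04 and 13 lay above 0, so the direction of the list was not settled. VPS28 stayed below 0 there, but with the same 4 KK arrays against only KA 1 and KA 2, which is no independent check.

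Subunits of the respiratory chain and ATP synthase lay above 0 in 50 of 75 genes, with a median of 0.04. At an unadjusted p under 0.05, 3 were higher (4.0%, near the 2.53% of all genes): ATP5F1E at 0.24 (SE 0.09), NDUFS6 at 0.19 (SE 0.08) and SDHC at 0.22 (SE 0.10). That count was 0 without KK 2, 1 without KK 1, 5 without KK 3 or KA 9, and 7 without KK 4 or KA 1. Within array numbers 29 to 42 the median was -0.07 and 54 of the 75 genes lay below 0. The 68 cytosolic ribosomal proteins had a median of 0.00 and -0.12 within array numbers 29 to 42.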

How the data were processed

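RNA was measured in mammary biopsies of 17 cows (4 KK, 13 KA), 1 array per cow. The deposited table holds log2 values for each probe set, normalized by the authors. The submitters' processing notes name both RMA and GCRMA without saying which made this table, and per the labels' protocols the authors worked in Bioconductor 2.7 and R 2.13. Values centre near 0: a baseline had been taken off each probe set, and no source used here describes that step. Levels and signal over background are thus unknown.

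Of 24128 probe sets, 112 controls were left out and 24016 tested. A probe set was bright (2077) where a share of at least 0.9 of its values lay on the rounding step of a log2 level of 8 or more, intermediate (13801) for 4 to 8, and otherwise dim (8138). GEO's platform annotation paired 13292 probe sets with 1 symbol, 86 with several and 10638 with none, and 13263 of the first were renamed by their gene identifier from RefSeq (ARS-UCD2.0), which was used for names and neighbour order only. For each of 9155 genes, 1 probe set was taken, ranked by level class, then by the plainness of its type, then by identifier.

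KK minus KA was fitted with limma 3.58.1 (lmFit, eBayes) in R 4.3.3 on these 17 arrays without covariates, with Benjamini-Hochberg adjustment over 24016 probe sets, a threshold of 0.05, and 95% intervals. Exact two-sided permutation tests listed all ways to pick 4 of 17 arrays in numpy 2.4.6, and the probe set of smallest p was checked with scipy 1.17.1. Every adjusted p in the text is limma's, except the smallest adjusted p of the exact permutation test, 0.517. The named genes are the 12 of smallest p in each direction, DGAT1, up to 4 members of smallest p of each list, the sterol regulators, caseins and class II chains. The members and gene lists were chosen with earlier results of these data known, so lists are described by counts and medians and not tested. On simulated arrays with 200 of 24016 probe sets changed, 3 unchanged ones were called, and with no change 0.

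Alternatives were quantile normalization, centring, leaving out dim probe sets, robust variances, array weights, all 28 arrays, array number as a covariate, as a block or restricted to 29 to 42, the 3′ minus 5′ control difference, a threshold of 0.10, averaging the probe sets of each gene, lists without shared genes, and leaving out each array. Leaving out KK 4 and KA 5 together was chosen after seeing the data.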

Additional observations from a re-analysis of the deposited data

Results flagged for a closer look

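For 58 results, DGAT1, the genes of smallest p and the list means among them, the 4 KK arrays were examined for a single array far from the other 3, by the gap to its neighbour over the whole range, set against Dixon's critical value. Chance flags about 1 in 20 groups, and 4 of 58 were found. KK 3 stood apart in the mean of the myoepithelium and smooth muscle markers, at 0.35 against -0.34 to -0.32 in the other KK arrays. KK 4 stood apart in the mean of the macrophage and myeloid markers, at 0.70, and in the mean of the cytokines and chemokines, at 0.57. KK 1 stood apart in the mean of the fatty acid uptake and activation genes, at 0.14.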

How the results depend on the processing

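The count of probe sets past the adjusted threshold was 0 with 17 arrays and 1 with the 3′ minus 5′ difference of the control probe sets as a covariate (RGS1), 2 with array weights (BLTP3B and a probe set without a symbol) and 2 of 9155 genes with the mean over the probe sets of a gene (PHF3 and BLTP3B). Leaving out 1 array gave 0 to 1: LOC526041 without KA 2, SIRT2 without KA 4, PPIC without KA 8, BLTP3B without KA 9, CINP without KK 3 and a probe set without a symbol without KK 1. It stayed 0 at a threshold of 0.10 and with quantile normalization, centring, robust variances, all 28 arrays, or array number in any form. The 1479 probe sets at an unadjusted p under 0.05 became 681 with all 28 arrays and 807 with the 2 ranges of array number as a block. The number was 466 within numbers 29 to 42 (fewer arrays) and 462 with the mean over the probe sets of a gene (fewer features). It was 1186 to 1811 with 1 array left out. It rose to 1942 with the 3′ minus 5′ difference as a covariate, 1886 with array weights and 1585 with quantile normalization. Of list medians, array number as a covariate gave -0.02 for collagen processing, 0.04 for the genes next to DGAT1 and for the lipid regulators, 0.12 for endothelium markers (-0.10 without it), -0.08 for the respiratory chain and 0.16 for triacylglycerol synthesis. With no KK array in 43 to 56, the block and the restriction to 29 to 42 give the same differences and are not separate checks. Their medians were -0.12 for ribosomal proteins, 0.04 for the genes next to DGAT1 and for the lipid regulators, and 0.18 for triacylglycerol synthesis. The cause of these shifts was not tested, since array number and genotype are largely confounded. The 24 genes of smallest p and DGAT1 kept their sign under all alternatives run for them. The 24 were chosen by smallest p on these 17 arrays, so their kept sign is no independent check and says nothing of size. Other genes described here turned within 29 to 42, among them ACACA, SCD5, SREBF2, LOC785756, EBP, MSMO1, GPAA1 and BOLA-DQA2. KK and KA arrays came from different cows, 1 array per cow, and the labels name no pairs, so no paired analysis was run. With 4 KK arrays, 1 array could move a list median past 0, as KK 4 did for B cell and macrophage markers.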

Other observations

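In the 11 AA arrays, used elsewhere only in the alternative with all 28 arrays, most of the 24 genes of smallest p did not follow an order from KK through KA to AA. For 12 of the 12 genes higher in KK the AA median lay on the KK side of the KA median, and so it did for 10 of the 12 lower genes, all but PPIC and ASPN. BLTP3B had an AA median of 0.20 (range -0.67 to 0.95), near the KK mean of 0.23 and above the KA median of -0.71. TOR1AIP1 had an AA median of -0.20, against 0.21 in KA, and HAS2 of -0.40, against 0.08. The genes were chosen on the KK and KA values, so extreme KA values entered the choice and the count is a description. Of the AA arrays 8 of 11 carried numbers 29 to 42, as did 4 of 4 KK and 2 of 13 KA arrays, so genotype and array number were largely confounded, and the part of array number in this pattern was not tested.

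Further single genes, some of them from gene groups not described above, are given here by their values. GCLM, the modifier subunit of the enzyme that starts glutathione synthesis, was -0.16, -0.38, -0.14 and -0.14 in KK 1 to KK 4 and ran from -0.07 through 0.11 to 0.58 in KA without overlap, a difference of -0.40 (SE 0.11, limma adjusted p = 0.406), while GCLC, the catalytic subunit, differed by 0.29 (SE 0.19). The chemokine CCL5, which attracts T cells, differed by 0.70 (SE 0.22) and by 0.30 without KK 4, where it read 1.70. Among the class II chains, BOLA-DQA5 was 3.75 in KK 1 and -0.48 to -0.03 in the other KK arrays, while BOLA-DQA2 was -4.11 in KK 3 and -0.12 to 1.22 in the others. In KA these chains ran from -0.28 to 4.10 and from -3.95 to 0.99. KA 1, KA 6, KA 8, KA 9 and KA 13 lay above 3 log2 in BOLA-DQA5, and KA 3, KA 6 and KA 8 lay below -3 log2 in BOLA-DQA2, so both genotypes held arrays several log2 from the rest. The cell cycle list had 19 of 24 genes above 0 with a median of 0.09, and 0.01 without KK 4. The lists not described so far had medians near 0 that single arrays or the array numbers moved. Complement had 0.08, with -0.03 without KK 4 and 0.22 without KK 2. Interferon-stimulated genes had 0.00, with 0.18 without KA 8 and -0.09 without KK 4, and cytokines had 0.00, with 0.09 within array numbers 29 to 42. Acute phase proteins had -0.05, with -0.17 within array numbers 29 to 42 and 0.14 with array number as a covariate. Within 29 to 42, the medians went from 0.06 to -0.06 in oxidative stress defence, from 0.06 to -0.03 in the unfolded protein response, and from -0.06 to 0.03 in lactation hormone signalling. Luminal epithelium markers had -0.07, with 0.03 without KK 1. The medians were 0.02 for red blood cell markers (-0.07 without KK 2), -0.02 for adipocyte markers (-0.10 without KK 1), -0.02 for fatty acid oxidation (-0.09 without KK 1) and -0.01 for proteases of tissue remodelling.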
